A study of Mus musculus with 4 samples.

Results

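Levels of 8 genes of muscle wasting were compared in C2C12 myoblasts in which Sfmbt1, a gene for a chromatin protein with MBT repeats, was knocked down. They are the ubiquitin ligase genes Fbxo32, Trim63, Trim54, Fbxo30 and Traf6 and the forkhead transcription factor genes Foxo1, Foxo3 and Foxo4, 8 of the 18193 genes that have a probe set of their own in the array annotation. Every probe set assigned to exactly 1 of these genes was taken, 23 in all. Probe set 1444226, assigned to both Foxo3 and Gm38485, was left out. C2C12 is a mouse myoblast line that can form muscle fibres in culture. Every culture was transduced with a pLKO.1 vector that integrates stably, was selected with puromycin and was held in growth medium with serum. In 2 control cultures the vector expressed a control short hairpin RNA (shRNA), which one label calls scramble and another shLuc, and in 2 knockdown cultures an shRNA against Sfmbt1 (shSFMBT1). RNA of each culture was hybridised to 1 Affymetrix mouse array. The labels name 1 Sfmbt1 hairpin and call the cultures of a group biological replicates. Whether each culture had its own transduction is unknown here. The p-values rest on the spread between these cultures, pooled with that of other probe sets of similar brightness.

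Skeletal muscle that wastes degrades its contractile proteins through the ubiquitin-proteasome system and through autophagy. Ubiquitin ligases choose the proteins to be tagged, and Fbxo32 (atrogin-1, MAFbx) and Trim63 (MuRF1) are the genes by which muscle atrophy is most often recognised. FoxO factors activate both genes when insulin and AKT signalling is low. AKT phosphorylates FoxO proteins and keeps them out of the nucleus, a step that RNA levels do not show.

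Arrays were of similar brightness, with a median signal of 92.8 to 102.7. The limit of background, set by 27 bacterial control probe sets, lay between 42.9 and 69.3, and a signal at or under it is called background here. Knockdown replicate 1 had the highest limit. In probe set 1422894 of Sfmbt1 the signal was 242 and 278 in the controls and 74.6 and 16 with the knockdown, the last in background. Its log2 difference was -2.35, or -1.91 with that array at its background limit, and it passed (adjusted p = 0.0219). The 3 other Sfmbt1 probe sets tested were lower on both knockdown arrays than on both controls, with log2 differences from -1.11 to -0.50, and did not pass. The fifth, 1443853, was in background on all 4 arrays. All 10 myoblast markers looked for were tested, and none was in background throughout. The master regulator Myod1 stood at 3284 and 3739 in control cultures and at 2549 and 3140 in knockdown cultures.

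Fbxo32 fell in the knockdown, and no other member gene passed the test in either direction. Fbxo32 encodes the F-box subunit with which an SCF ubiquitin ligase recognises its substrates, among them MyoD and the translation factor subunit eIF3f. In bulk RNA, fewer cells that express a gene and less RNA per cell cannot be told apart. In probe set 1448747 the signal was 597 and 434 in the control cultures and 103.1 and 99.6 in the knockdown cultures. In probe set 1417522 it was 499 and 529 against 140.2 and 156. In probe set 1435265 it was 444 and 369 against 218 and 236. In all 3 probe sets both knockdown arrays were lower than both control arrays, and all 12 signals were above background.

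**Figure D1:**
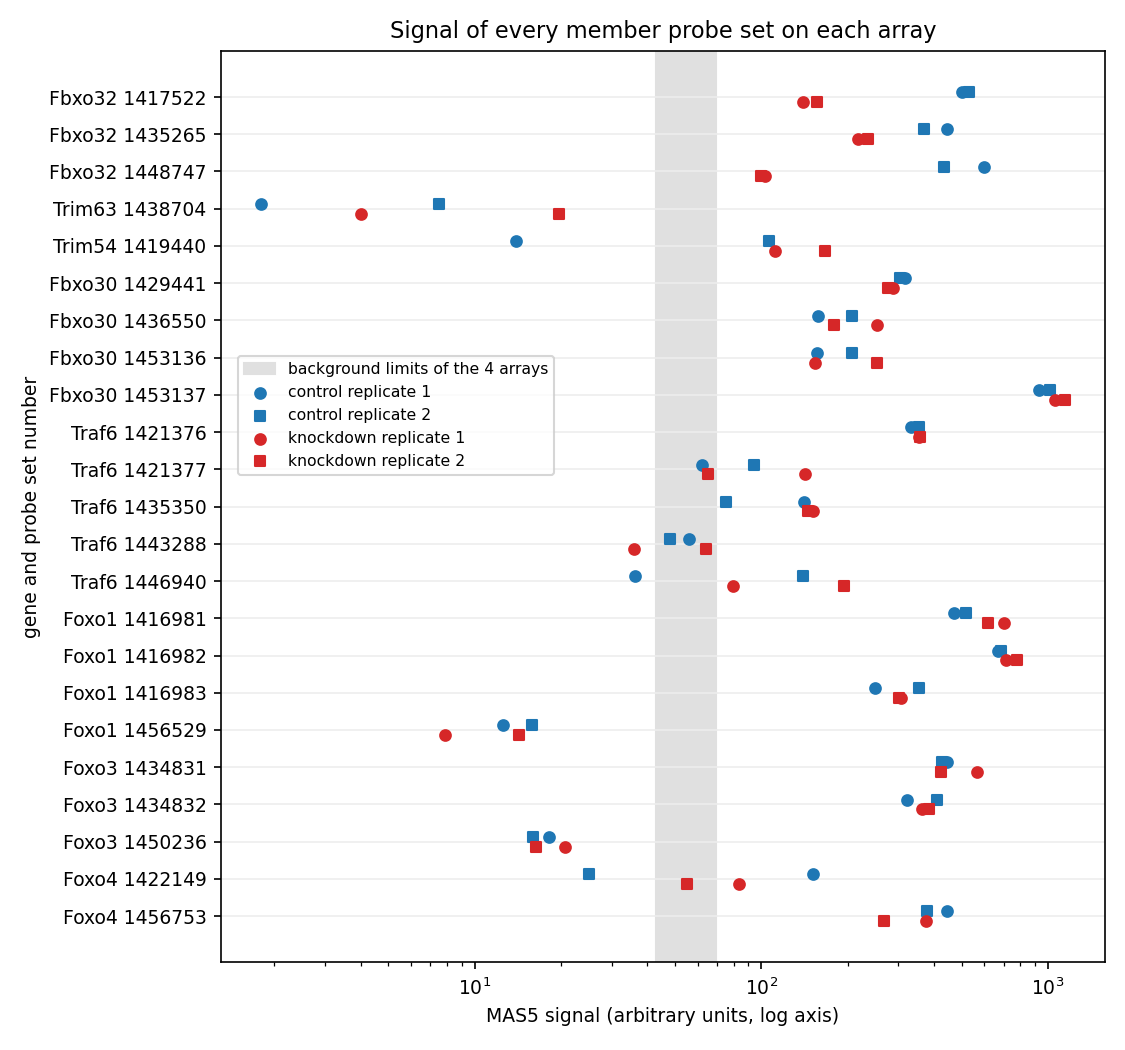
Signal of each of the 23 probe sets on the 4 arrays, on a log axis in arbitrary units, with control arrays in blue, knockdown arrays in red and the range of the 4 background limits (42.9 to 69.3) in grey. The knockdown points of Fbxo32 lie between 99.6 and 236 and its control points between 369 and 597, while the points of Trim63 all lie at 19.7 or lower.

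The mean signal in the knockdown was 19.7% of the control in probe set 1448747, from 516 ± 116 to 101.4 ± 2.47 (SD, n = 2 each). In 1417522 it was 28.8%, from 514 ± 21.2 to 148 ± 11.4, and in 1435265 it was 55.7%, from 407 ± 52.8 to 227 ± 12.5. On the scale of log2(signal + 16), on which every difference below is given as knockdown minus control, the difference was -2.16 (SE 0.23, 95% interval -2.65 to -1.67, adjusted p = 8.27e-04) in 1448747. It was -1.69 (SE 0.19, -2.11 to -1.27, adjusted p = 0.00125) in 1417522 and -0.80 (SE 0.19, -1.22 to -0.37, adjusted p = 0.0566) in 1435265. Both of the first were called lower at an adjusted p under 0.05 by limma, whereas the last was not. The 95% interval of 1435265 does not reach those of the other two. The annotation gives the same source transcript record for 1417522 and 1448747 and another for 1435265.

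These 2 calls were the only ones among the 19 member probe sets bright enough to be tested. Of all 22893 probe sets tested, 328 were called lower, which is 1.43%, and 220 higher, which is 0.961%. Ranked from the most negative difference, 1448747 took place 9 and 1417522 place 32. Centring each array on its median turned the 220 higher and 328 lower calls over the whole table into 401 and 333, and the Fbxo32 differences became -2.12, -1.65 and -0.75. The Fbxo32 calls were lost when the variance was not allowed to depend on the signal (adjusted p = 0.143 and 0.138), where limma called 0 probe sets in the whole table while 1165 higher and 1748 lower ones had an unadjusted p under 0.05. With 1 probe set per gene the fit used 1435265, and there it passed (adjusted p = 0.0399).

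**Figure D2:**
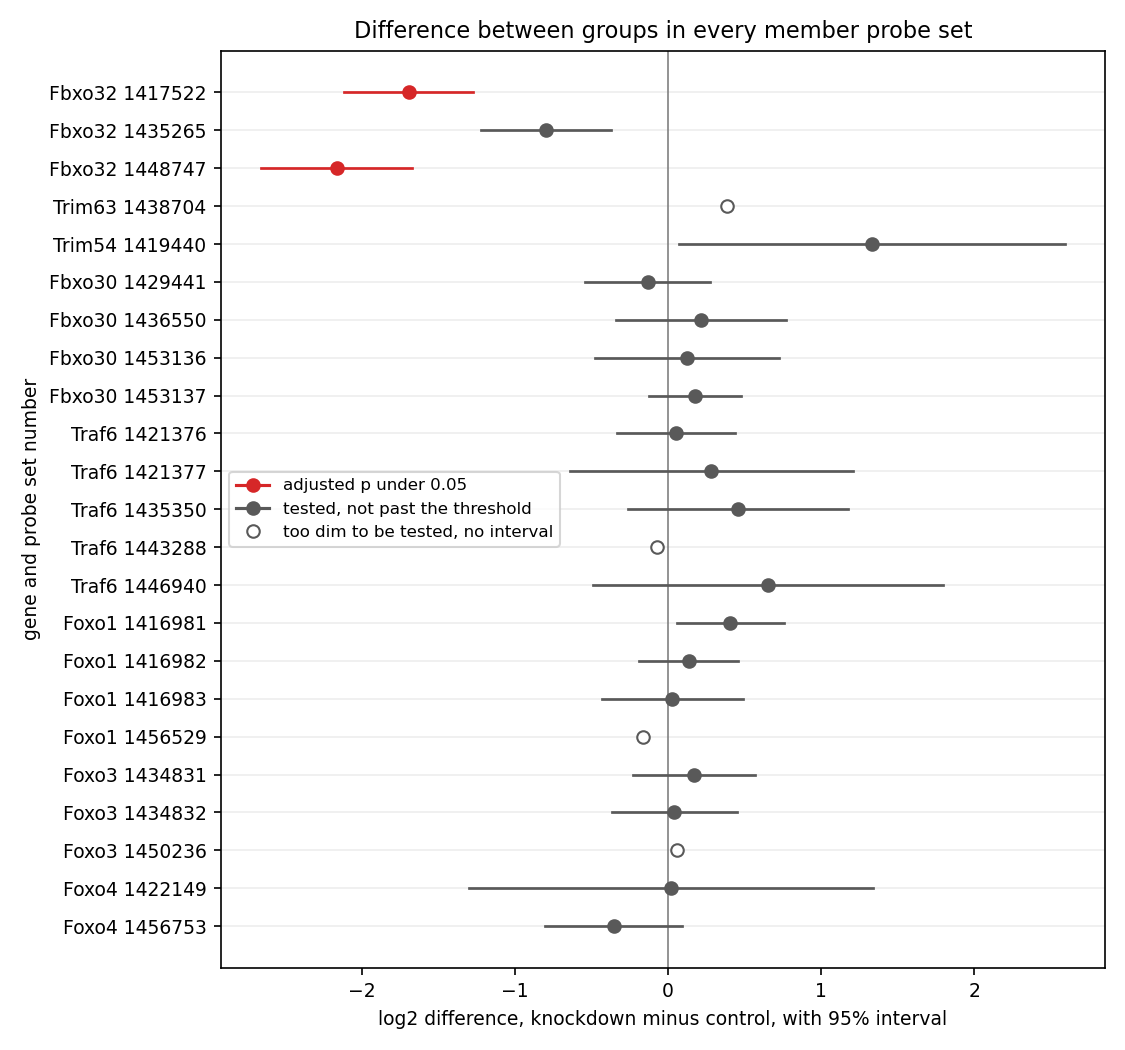
Log2 difference, knockdown minus control, for each member probe set, with the 95% interval from limma for the 19 tested; open circles are the 4 too dim to be tested. The probe sets 1448747 (-2.16) and 1417522 (-1.69) of Fbxo32 are in red, and the widest intervals belong to Trim54 and Foxo4 probe sets with an array in background.

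**Figure D3:**
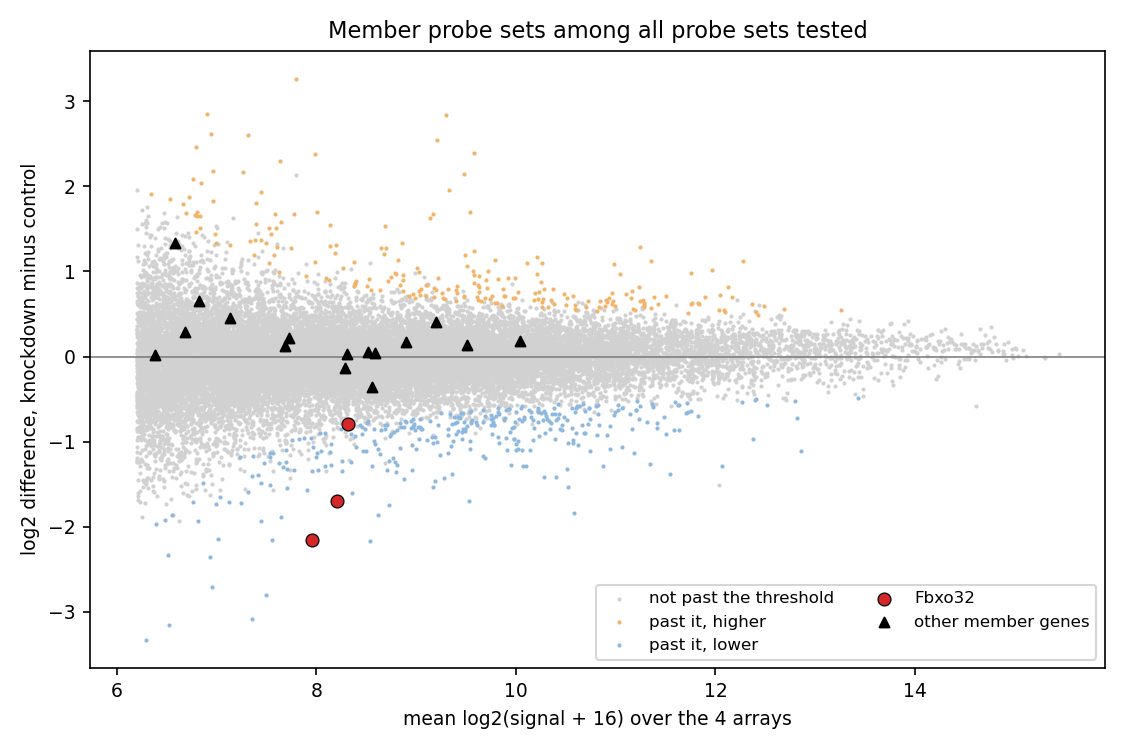
Log2 difference against mean log2(signal + 16) for the 22893 probe sets tested, with those called higher in orange (220) and lower in blue (328). The 3 red points of Fbxo32 lie at or below -0.80, and the 16 black triangles of the other member genes lie between -0.35 and 1.33.

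The genes beside Fbxo32 in the RefSeq order of protein-coding genes were looked at after its values were seen. Of 3 neighbours on each side, 5 genes had a probe set (Zhx1, Atad2 and Wdyhv1 on one side, Anxa13 and Fam91a1 on the other). Klhl38, directly beside Fbxo32, had none, and the only Anxa13 probe set was too dim to be tested. The 8 tested probe sets belonged to Zhx1, Atad2, Wdyhv1 and Fam91a1, and limma called 0 of them. Their differences ran from -0.63 to 0.39, with a smallest adjusted p of 0.415. None of the 8 had an unadjusted p under 0.05 either, the lowest being 0.0903 in an Atad2 probe set.

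The profiles nearest to Fbxo32 over the 4 arrays were taken from all probe sets tested, by the Euclidean distance between log2 values centred on each probe set's mean. For 1417522 they belonged to the magnesium transporter and oligosaccharyltransferase gene Magt1 (distance 0.142), the adaptor gene Cd2ap (0.160) and the membrane metalloproteinase gene Mmp14 (0.163). Their differences were -1.70, -1.71 and -1.75. Cd2ap was in background on knockdown replicate 1, and with that array at its background limit its difference was -1.63. For 1448747 they were Plec, which encodes the cytolinker plectin (0.273), the acetylcholine receptor subunit gene Chrnd (0.293) and Mmp23 (0.399), and both Chrnd and Mmp23 were in background on both knockdown arrays. These distances rest on 4 arrays.

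Trim63 gave no signal that could be compared. It encodes a RING-finger ligase that binds the M-band region of titin and tags myosin and other thick filament proteins. Its only probe set, 1438704, read 1.8 and 7.5 in the controls and 4.0 and 19.7 with the knockdown. All 4 values were in background, so the probe set was not tested and no fold is given. At this sensitivity a Trim63 transcript was not detectable in either group.

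Trim54 encodes MuRF3, a relative of MuRF1 that associates with microtubules and the Z-disc. Probe set 1419440 read 13.9 and 106.5 in the controls and 111 and 166 with the knockdown. Both knockdown arrays were higher than both controls, but control replicate 1 was in background and control replicate 2 nearly reached the lower knockdown array. The probe set was bright enough to be tested only through the knockdown arrays. The difference of 1.33 (SE 0.57, 95% interval 0.07 to 2.59) did not pass (adjusted p = 0.292). With the dim array put at its background limit the difference was 0.77. Leaving out control replicate 2 gave 2.35 (adjusted p = 0.0101), a call that rests on the 1 control array in background.

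The start regions of both genes are shown because FoxO factors and muscle basic helix-loop-helix factors such as myogenin are known to act on genes of this kind. RefSeq windows of 250 bases before the gene start (GRCm38.p6) were available for 6 members, Trim63, Trim54, Fbxo30, Traf6, Foxo1 and Foxo3. They were searched on both strands for the FoxO element GTAAACA and for the E-box CANNTG, which reads the same on both strands. Capitals mark the matches, and no match overlapped another. The Trim63 window is chr4:134314870-134315119 and the Trim54 window chr5:31116362-31116611, both on the plus strand and written 5′ to 3′.
Trim63: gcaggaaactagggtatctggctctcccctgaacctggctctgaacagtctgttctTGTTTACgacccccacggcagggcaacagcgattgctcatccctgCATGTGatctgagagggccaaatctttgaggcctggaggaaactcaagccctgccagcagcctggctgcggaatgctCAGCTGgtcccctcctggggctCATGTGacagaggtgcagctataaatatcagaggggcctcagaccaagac
Trim54: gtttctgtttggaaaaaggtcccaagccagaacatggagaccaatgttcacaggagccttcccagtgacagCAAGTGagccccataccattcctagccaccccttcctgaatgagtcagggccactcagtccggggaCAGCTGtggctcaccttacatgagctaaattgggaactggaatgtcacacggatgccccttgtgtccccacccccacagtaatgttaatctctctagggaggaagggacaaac

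The Trim63 window held the FoxO element on its reverse strand, beginning 194 bases before the start, and E-boxes beginning 149, 72 and 50 bases before it. The Trim54 window held E-boxes 179 and 113 bases before the start, and the letters CAGCTG occurred in both windows. Among all 32851 windows of this length 3.17% held the FoxO element and 66.2% an E-box. Of the 6 members with a window, 1 held the FoxO element and 4 an E-box. The letters are a description of the sequence, and the arrays do not measure binding.

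Fbxo30 encodes the F-box protein MUSA1, a ligase induced when BMP signalling is lost in denervated muscle. Its brightest probe set, 1453137, read 932 and 1013 in the controls and 1061 and 1142 with the knockdown. The knockdown arrays were higher, by 0.18 (SE 0.14, 95% interval -0.12 to 0.48, adjusted p = 0.592). Probe set 1429441 went the other way, from 316 and 305 to 287 and 276.5, again without overlap (-0.13, SE 0.19, interval -0.54 to 0.27). In 1436550 and 1453136 the groups overlapped, with 157 and 207 in the control of each, 253 and 178.5 in the knockdown of the first and 154 and 254 in that of the second. Their differences were 0.22 and 0.13. Fbxo30 thus had 3 positive and 1 negative differences, of which 0 passed, with a smallest unadjusted p of 0.224.

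Traf6 encodes an adaptor ligase that builds K63-linked ubiquitin chains and passes signals of the interleukin-1 and Toll-like receptors to NF-kappaB. The probe set 1421376 was the steadiest, with 332 and 354 in the controls and 355 and 357 with the knockdown (0.05, SE 0.18, 95% interval -0.33 to 0.44). Signals of 1435350 were 140.7 and 75.4 against 151 and 145, a difference of 0.46 (SE 0.33, interval -0.26 to 1.17). Both probe sets were a little higher in the knockdown without overlap, and neither passed (adjusted p = 0.929 and 0.556). Probe set 1421377 read 62.0 and 94.4 against 141.6 and 65.0 (difference 0.28), and 1446940 read 36.2 and 139.7 against 79.4 and 195 (difference 0.65), with overlap in each. In 1446940 control replicate 1 was in background. The fifth, 1443288, lay between 35.9 and 64.1 and was not tested. The upper limits of the 95% intervals of 1421377 and 1446940 were 1.21 and 1.80.

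Foxo1 is the FoxO gene most closely tied to metabolic control and to the timing of myoblast fusion. Probe set 1416981 read 469 and 519 in the controls and 702 and 619.5 with the knockdown. Both knockdown arrays were higher, by 0.41 (SE 0.16, 95% interval 0.06 to 0.75), which had an unadjusted p of 0.0262 and did not pass (adjusted p = 0.244). In 1416982, signals of 668 and 687 compared with 713 and 779.6, a difference of 0.14 (SE 0.15, interval -0.19 to 0.46). In 1416983 the control arrays, 249.9 and 356, lay on either side of the knockdown arrays, 307 and 302 (0.03, SE 0.21). The fourth probe set, 1456529, was in background on all 4 arrays, at 7.9 to 15.9. The 3 measured probe sets of Foxo1 thus gave differences from 0.03 to 0.41 with no call.

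Foxo3 encodes the factor best known for inducing Fbxo32 and autophagy genes in wasting muscle. Probe set 1434831 read 443 and 425 in the controls and 566 and 424 with the knockdown, so that knockdown replicate 1 alone stood higher. The difference was 0.17 (SE 0.18, 95% interval -0.23 to 0.57, adjusted p = 0.721). In 1434832 the signals were 322 and 409 against 363 and 386, a difference of 0.04 (SE 0.19, interval -0.36 to 0.45, adjusted p = 0.946). Groups overlapped in both. Probe set 1450236 was in background throughout, at 16 to 20.7. The probe set shared with Gm38485 read 100.6 and 51.9 against 129 and 119.5.

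Foxo4, the X-linked member of the family, was read by a bright and a dim probe set. In 1456753 the signals were 444 and 379 in the controls and 376 and 268 with the knockdown. Both knockdown arrays were lower, replicate 1 by little, and the difference of -0.35 (SE 0.20, 95% interval -0.80 to 0.09) did not pass (adjusted p = 0.449). Probe set 1422149 read 151.8 and 25 against 83.7 and 54.9, with control replicate 2 in background. Its difference of 0.02 had an interval from -1.30 to 1.34, too wide to place the gene.

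Over the 16 tested probe sets of the members other than Fbxo32, differences ran from -0.35 to 1.33 with a median of 0.15, beside a median of -0.01 over all 22893 probe sets tested. Adjusted p-values ran from 0.244 to 0.994, and 2 had an unadjusted p under 0.05, in Trim54 and Foxo1. Of all probe sets tested 15.5% had one. The Trim54 probe set, at 1.33, was bright enough to be tested only through the knockdown arrays. Groups did not overlap in 11 of the 19 tested member probe sets, 3 of them Fbxo32's, beside 45.6% of all probe sets tested. Of the 11, 6 were higher in the knockdown and 5 lower, beside 21.6% higher and 24.0% lower of all tested. Over every probe set of 1 gene, tested or not, the share without overlap was 41.7%, and 11 of the 23 members were among them.

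Signs of muscle differentiation differed between the groups in the same cultures. The array holds 16 differentiation markers, and of the 15 that were tested 13 rose and 0 fell in the knockdown (7 and 0 when dim ones were kept). The 3 with the smallest p were Myog, Mylpf and Actc1, with differences of 2.40 (SE 0.15), 2.54 (SE 0.16) and 2.14 (SE 0.15). The summed signal of the 16 markers, brightest probe set of each, was 2796 and 2460.3 in the controls and 11583 and 12053 with the knockdown. None of the 16 was in background throughout. Mybph, Tnnt1 and Tnni1 each had 1 control array in background and were bright enough to be tested only through the knockdown arrays. With dim probe sets kept, Tnni1 was still called in limma, whereas Mybph and Tnnt1 were not (adjusted p = 0.187 and 0.146). Tnnt3 lost its call without control replicate 1 or knockdown replicate 1, and Mybph without control replicate 2 or knockdown replicate 1 and with a pseudocount of 1 (adjusted p = 0.0503). The part of this difference in the fall of Fbxo32 was not tested.

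Myoblast markers and markers of other cell types were looked at in the same way. Among 10 myoblast markers Msc rose (1.54, SE 0.22) and Met fell (-0.74, SE 0.14), while Pax7 gave -0.97 (adjusted p = 0.0882) and, in its other probe set, -0.11. The summed signal was 21265 and 23549 in the controls and 20954 and 22106 with the knockdown. Without control replicate 2, Met did not pass (adjusted p = 0.110). The first Pax7 probe set ran from -1.37 to -0.58 as single arrays were left out, and was called lower without control replicate 2 (adjusted p = 0.0335), with the upper 40% filter (0.0249) and without knockdown replicate 2 (2.87e-05). Of 7 tested fibroblast markers Col1a1 and Col1a2 rose (1.96 and 0.63). Col3a1 fell in 1 probe set (-0.77), with 0.21 in the brighter one. Pdgfrb fell in 1 probe set (-0.82, adjusted p = 0.04999), with -0.58 (0.0703) in the brighter one. That Pdgfrb call was lost with a pseudocount of 1 (0.0552) and without probe sets shared between transcripts (0.0560). With dim probe sets kept, Msc, Met, Col1a2, Col3a1 and Pdgfrb were not called. The fibroblast sums were 23980.0 and 22359.7 in the controls against 28810.2 and 30304 with the knockdown. Without control replicate 1, Col1a2 (adjusted p = 0.145) and Col3a1 (0.116) did not pass, and without control replicate 2 Pdgfrb did not (0.191). No adipocyte, macrophage, endothelial or osteoblast marker passed in limma, and of their tested probe sets 2 adipocyte and 0 others had an unadjusted p under 0.05. Their largest differences were 0.75 in Fabp4, 0.70 in Lpl and -0.51 in Cebpa, 0.59 in Csf1r, -0.57 in Cd68 and 0.34 in Lyz2, 0.53 in Cdh5 and -0.42 in Kdr, and -0.49 in Alpl and 0.39 in Sp7. Adipoq, Cidec, Itgam, Ptprc, Pecam1 and Vwf were in background on all 4 arrays.

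Probe sets for partners of the ligases passed the test about as often as all probe sets did. Of 48 tested probe sets for SCF subunits, ubiquitin-conjugating enzymes and ubiquitin genes, standing for 20 genes, 0 were called higher and 1 lower, 2.08% beside 2.39% called in either direction over the whole table. That was Ube2j1, a conjugating enzyme of the endoplasmic reticulum, from 1858 and 1628 to 992 and 1108 (-0.72, SE 0.14, adjusted p = 0.0224). Its other probe set gave -0.29, and without control replicate 1 the adjusted p was 0.125. Commd1 and the proteasomal deubiquitinase gene Usp14 gave 0.43 (adjusted p = 0.161) and 0.46 (adjusted p = 0.188) in their probe sets of smallest p. The other Commd1 probe set gave 0.14 and the other Usp14 probe sets 0.10 to 0.23. Commd1 passed without knockdown replicate 1 (adjusted p = 0.0247), and Usp14 without control replicate 2 (0.0387) or knockdown replicate 2 (0.0458). Skp1, which links the F-box protein to the cullin, gave 0.27 and 0.37 in 2 probe sets and the scaffold gene Cul1 0.09, with adjusted p from 0.240 to 0.838. Skp1 was called higher in the fit that left out knockdown replicate 1. The SCF subunit gene Rbx1 gave -0.58 (adjusted p = 0.748), with knockdown replicate 1 in background. With that array at its background limit the Rbx1 difference was 0.12. Rbx1 was called lower in the fit that left out knockdown replicate 2, where that dim array stood alone. The list's median was 0.10. Of the Fbxo32 substrates, Myod1 gave -0.31 (adjusted p = 0.309) and Eif3f 0.27 (adjusted p = 0.343).

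Among other E3 ligases of muscle, 44 probe sets of 20 genes were tested, with 0 called higher and 1 lower (2.27%). The probe set belonged to Smurf1, a HECT ligase of the BMP and TGF-beta pathways, and went from 731 and 561 to 331 and 223 (-1.19, SE 0.21, adjusted p = 0.0171). The brighter Smurf1 probe set differed by only -0.04, and with quantile normalization the call was lost (adjusted p = 0.0515). The HECT ligase gene Nedd4 gave -0.44 (adjusted p = 0.0647) in 1 probe set and 0.17 and -0.04 in the others. That probe set passed with median centring (0.0259), quantile normalization (0.0115), the upper 40% filter (0.0251) and without knockdown replicate 2 (0.0486). The F-box gene Fbxl20 gave -0.85 (adjusted p = 0.0735), -0.40, -0.36 and 0.22 in its 4 probe sets, and the first passed with the upper 40% filter (0.0294) and without knockdown replicate 2 (0.00415). Trim32 was called higher with median centring. The list's median was -0.05, and Asb15 and Trim72 were in background throughout.

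Autophagy genes and other FoxO targets went in both directions. Of 82 tested probe sets of 37 genes 1 was called higher and 4 lower, 6.1% in all, beside 2.39% over the whole table. The list's median was -0.10, beside -0.01 over all probe sets tested, and 29 of the 82 differences were positive. Map1lc3b, which encodes the LC3B protein of the autophagosome membrane, rose from 1544 and 1743 to 2436 and 2552 (0.60, SE 0.13, adjusted p = 0.0343), and its 2 other tested probe sets gave 0.54 and 0.22. Atg12, part of the conjugation system that lipidates LC3, fell from 409 and 388 to 152 and 199 (-1.13, SE 0.21, adjusted p = 0.0197), and its other tested probe set gave -0.71. Klf9 (-1.25), the stress-response gene Gadd45b (-0.85) and the cyclin gene Ccng2 (-0.66) fell in 1 probe set each, with adjusted p of 0.0353, 0.0370 and 0.0477. Their other tested probe sets gave -0.53 to -0.01 for Klf9, -0.09 and 0.08 for Gadd45b and -0.40 for Ccng2. Gabarapl1, an LC3 relative, gave -0.33 and -0.31, the lysosomal protease gene Ctsl -0.18, the mitophagy receptor gene Bnip3 0.03 and the kinase gene Pdk4 0.40, none of which passed. Sesn3 gave -0.70 (adjusted p = 0.129) and -0.01, and Sesn1 gave -0.57 (0.318), -0.34 and -0.19 in its tested probe sets. Cdkn1b gave -1.13, with 1 knockdown array in background, and -0.39 (adjusted p = 0.273 and 0.250). With that array at its background limit the first Cdkn1b difference was -0.65. None of these passed either. Sesn3 was called lower in the fits that left out control replicate 1 or knockdown replicate 2, and Cdkn1b in the fit without knockdown replicate 2. Without control replicate 1 Map1lc3b (adjusted p = 0.214), Atg12 (0.0523), Klf9 (0.227) and Ccng2 (0.117) were not called, and without control replicate 2 Gadd45b (0.0577) and Ccng2 (0.204) were not. Median centring and quantile normalization ended the call of Klf9 (adjusted p = 0.0651 and 0.0713), and a pseudocount of 1 that of Ccng2 (0.0506).

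Upstream of FoxO, 109 probe sets of 39 genes for insulin, PI3K, AKT and related signalling were tested, with 0 called higher and 4 lower (3.67%) and a median of -0.01. Pik3ca, the catalytic PI3K subunit p110-alpha, went from 606 and 545 to 330.3 and 267 in probe set 1460326 (-0.92, SE 0.18, adjusted p = 0.0247), and its 5 other tested probe sets gave -1.02 to -0.33. Mapk8, the gene of the kinase JNK1, fell in probe set 1420931 (-1.33, SE 0.22, adjusted p = 0.0126), while its 4 other probe sets gave 0.17 to 0.63. The 14-3-3 genes Ywhag and Ywhaz, whose proteins hold phosphorylated FoxO in the cytoplasm, fell by 0.65 each in 1 probe set, and their other tested probe sets gave -0.12 to 0.11. Akt1 gave 0.19 and -0.26 in its bright probe sets and Akt2 0.16 and -0.24, with adjusted p from 0.315 to 0.590, and Akt1 was called lower in the fit that left out knockdown replicate 2. Ywhab, another 14-3-3 gene, was called higher with the upper 40% filter and with median centring (4 probe sets each), with quantile normalization, and without either knockdown replicate. Without control replicate 1 Pik3ca (adjusted p = 0.0938), Ywhag (0.160) and Ywhaz (0.0973) did not pass, and without control replicate 2 Ywhag (0.0852) and Ywhaz (0.167) did not.

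Of 69 tested probe sets of 32 genes for TRAF6 and NF-kappaB signalling, limma called 0. The 3 genes with the smallest p were Ikbkg, the regulatory subunit of the IkappaB kinase (0.60, SE 0.15, adjusted p = 0.0652, unadjusted p = 0.00201), the p38 kinase gene Mapk14 (-0.61, adjusted p = 0.144, with -0.77 to 0.34 in its other probe sets) and Tab2 (-0.39, adjusted p = 0.176, and -0.35). Without knockdown replicate 1 Mapk14 was called lower. The 5 other Ikbkg probe sets gave -0.10 to 0.28. Ikbkg passed in its first probe set with median centring (adjusted p = 0.0449), with the upper 40% filter (0.0271) and without knockdown replicate 2 (0.038). The list's median was -0.05, and 12 of its 69 probe sets had an unadjusted p under 0.05, beside 15.5% of all probe sets tested. Among 62 tested probe sets of 24 genes known from denervation or as MuRF partners, 2 were called higher and 0 lower (3.23%), with a median of 0.03. They belonged to Myog, which binds the promoters of Fbxo32 and Trim63 in denervated muscle, and to Ttn, the titin gene. The called Ttn probe set was in background on both control arrays (48.2 and 35.7) and read 157 and 184 in the knockdown. It was bright enough to be tested only through the knockdown arrays. The other tested Ttn probe sets gave 1.03 (adjusted p = 0.0777), 0.18, 0.04 and 0.03. Without knockdown replicate 2 Ttn did not pass (adjusted p = 0.0696). Smad3 gave -0.70 (adjusted p = 0.0963) and -0.28 and -0.11 in its other probe sets, and the first passed with the upper 40% filter (0.0352) and without knockdown replicate 2 (0.00591). Of all the genes called in these 6 pathway lists, Myog alone passed when dim probe sets were not filtered out.

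**Figure D4:**
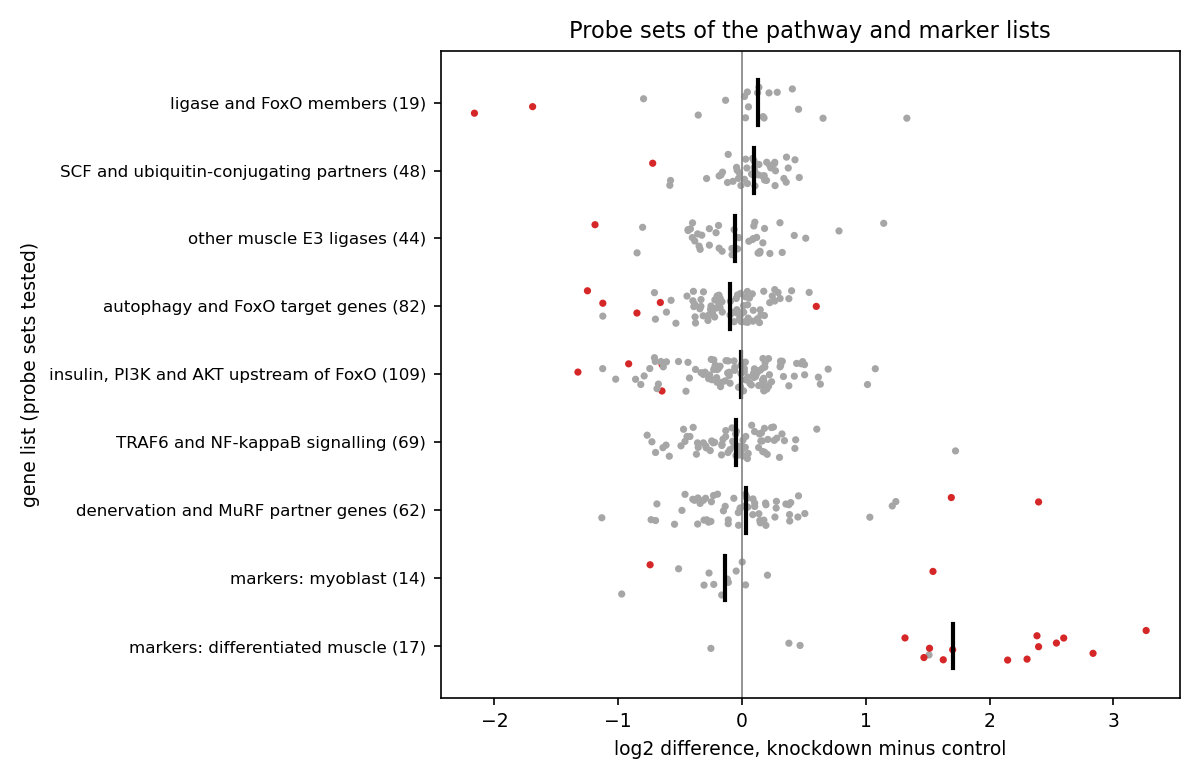
Log2 difference, knockdown minus control, of each tested probe set in the member list, the 6 pathway lists and 2 marker lists; points past an adjusted p of 0.05 are red, black bars are medians and the vertical scatter within a list carries no value. Red points of the pathway lists lie mostly below 0, and 13 of the 17 differentiation marker probe sets are red and above it.

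**Figure D5:**
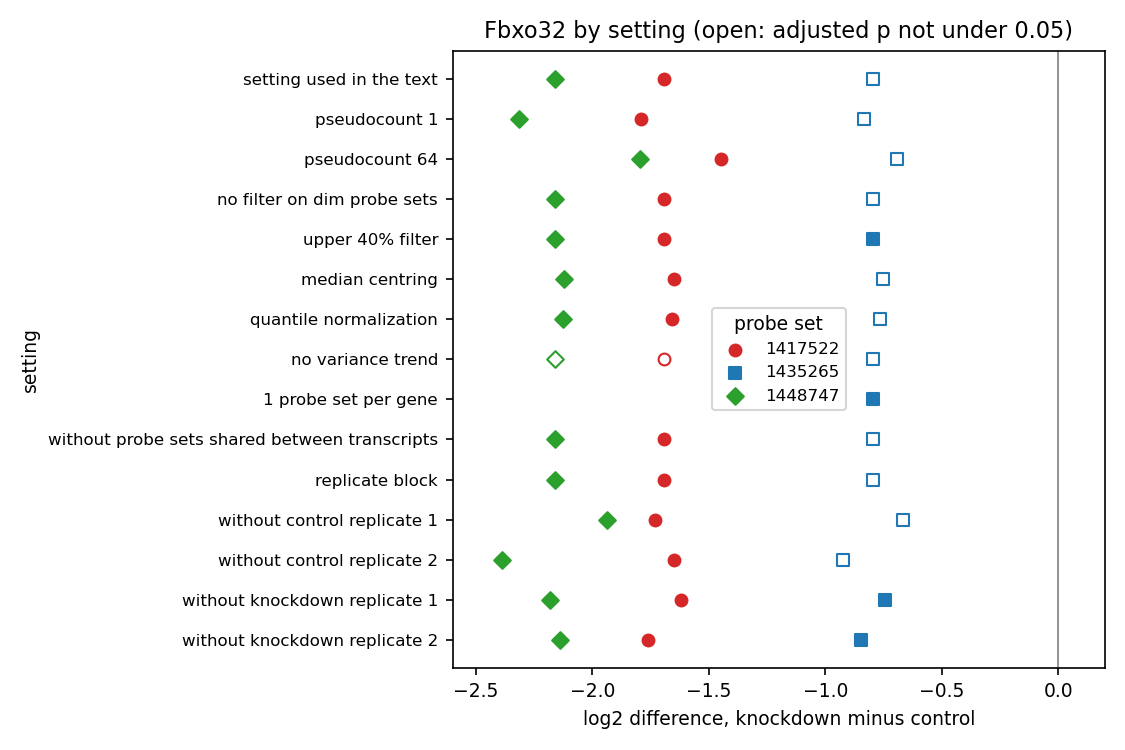
Log2 difference of the 3 Fbxo32 probe sets under each processing setting, with open symbols where the adjusted p was not under 0.05. All values are negative, from -2.39 to -0.67, and the 1435265 values are closest to 0 in every setting with all 3.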

How the data were processed

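RNA of 2 control and 2 knockdown cultures was measured on 1 Affymetrix array each. The deposited values are linear signal intensity values per probe set, made by the authors in GCOS with its MAS5 method, per the submitters' processing notes. The scaling between arrays was not stated in the sources used here, and values were used as deposited. MAS5 subtracts mismatch signal, so dim values are noisy. Probe sets were named from the array annotation, with 34741 of 34945 probe sets of 1 gene matched to RefSeq by gene ID. The 8 members and all gene lists were chosen with earlier results of these data known.

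From the deposited intensity values log2(signal + 16) was computed, and a fold on this scale understates the change of dim genes. Probe sets whose mean log2 signal lay in the upper 60% were tested (limit 57.3 on the signal scale). The test was limma 3.58.1 in R 4.3.3 (lmFit, and eBayes with a variance trend), fitted on all 22893 such probe sets with Benjamini-Hochberg adjustment over all of them and a threshold of 0.05. It was tested on simulated data first. The variance of a probe set had 2 residual and 9.6 prior degrees of freedom, so it came mostly from the trend over all probe sets. Background on an array was set at percentile 95 of its 27 bacterial controls. A 2 against 2 exact permutation test of a single value cannot go below p = 0.333 (two-sided), so none was used, and the number of arrays limits the precision. From each list the 3 genes with the smallest p were named, and from the members every probe set. For each Fbxo32 probe set that passed, the 3 nearest profiles were named too. Other genes named were chosen after their values were seen. The labels do not state that shared replicate numbers pair the cultures, so no block was used. Samples with the same replicate number did not deviate together (r = 0.00951 over probe sets). Alternatives were other pseudocounts, filters, scalings, a fit without the trend, 1 probe set per gene, leaving out probe sets shared between transcripts, a replicate block and leaving out each array.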

Additional observations from a re-analysis of the deposited data

How the results depend on the processing

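The 2 arrays a group, the single hairpin and the unknown array scaling limit these results, and signals near background carry little information. Under 13 alternatives both called Fbxo32 probe sets stayed negative (-1.79 to -1.45 in 1417522 and -2.39 to -1.79 in 1448747) and were called in 12; the exception was the fit without the variance trend, with 0 member calls and 0 higher and 0 lower calls over the whole table. Probe set 1435265 was negative under all 14 and called in 4, with adjusted p from 0.0118 to 0.311. With 1 probe set per gene 1 member was called lower, and 207 genes in all. Over the whole table calls numbered 22 higher and 41 lower without the filter, 359 and 591 in the upper 40%, and 401 higher (54.6% of the calls, against 40.1%) with median centring. Without shared probe sets 132 were higher. With the replicate number as a block 379 were higher and 478 lower, and the 2 Fbxo32 calls stood (adjusted p = 0.00505 and 0.00362). That block ended the calls of Ttn (0.0512), Tnnt3 (0.0505) and Mybph (0.0602), leaving Myog alone in the denervation list and 11 differentiation markers. In the pathway lists it added Nedd4 (0.0115), Ikbkg (0.0446), Ywhab and Cited2. The labels do not state that the replicate numbers pair the cultures. Leaving out 1 array gave 146 to 740 higher and 192 to 1045 lower calls, with 0 to 1 members higher and 2 to 3 lower. The lone array is then assumed to vary like the other group. Of 262 alternative values of the other members 1 passed, Trim54 without control replicate 2. A pseudocount of 64 turned the sign of Foxo4 1422149 (-0.0646). Leaving out 1 array at a time turned signs where groups overlapped, with ranges of -0.997 to 0.265 for Foxo4 1422149, -0.0155 to 0.450 for Fbxo30 1436550, -0.209 to 0.459 for Fbxo30 1453136, -0.196 to 0.764 for Traf6 1421377, -0.134 to 1.44 for Traf6 1446940, -0.214 to 0.269 for Foxo1 1416983, -0.0323 to 0.371 for Foxo3 1434831, -0.123 to 0.208 for Foxo3 1434832 and -0.0271 to 0.806 for the osteoblast marker Sp7. The cause was not tested.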
